A study of Mus musculus with 6 samples.

Results

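In the mouse genome, 6 windows of 1 Mb held 221 of the 18573 newly assembled long non-coding RNAs (lncRNAs) of a comparison between male and female germline stem cells. A transcript belongs to a window when the midpoint of its locus lies inside it, on mm10. The windows were picked because their transcripts were known to be higher in female germline stem cells, so the direction of the difference and the levels are given as a description and were not tested. The AC105297.2 window is chromosome 17 from 9 to 10 Mb and held 25 transcripts. The Adcyap1 window is chromosome 17 from 93 to 94 Mb and held 42. The Ankrd50-Fat4 window is chromosome 3 from 38 to 39 Mb and held 30. The Hdac9 window is chromosome 12 from 34 to 35 Mb and held 62. The Pdzrn3 window is chromosome 6 from 101 to 102 Mb and held 26, and the Gpr158 window is chromosome 2 from 21 to 22 Mb and held 36. The names are those of annotated genes that the windows overlap, and a name does not mean that the transcripts overlap or adjoin that gene. The 221 transcripts carried 207 gene identifiers of the assembly and lay at 136 distinct loci.

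Spermatogonial stem cells (SSCs) renew the male germline in the testis, and female germline stem cells (FGSCs) are dividing germ cells taken from the postnatal ovary. SSCs from testis and FGSCs from ovary were each sequenced as 3 libraries of total RNA depleted of ribosomal RNA, with the strand of the RNA kept. The labels give strain C57BL/6 for both, an age of 3 to 5 days for the SSC donors and of 6 days for the FGSC donors, whereas the methods of the study give the ages the other way round. According to the methods, both cell types came from animals in which Cre recombinase, driven by the Ddx4 promoter, turns on a green fluorescent reporter, cells of many animals were pooled, the cells were sorted by fluorescence, and those that then bound to laminin were kept. Ddx4 itself is active in germ cells of many stages. Sex, age and the preparation of the cells differ together between the groups and cannot be told apart. None of the 20 marker genes of germ, stem and supporting cells has a transcript named for it in the table, which holds no mRNAs, so the labelled cell types could not be checked here.

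The level of each transcript is a value in fragments per kilobase of transcript, scaled to the number of mapped fragments (FPKM), 1 for SSCs and 1 for FGSCs, each set by the authors over their 3 libraries. There is no value per library, and so no SD, no n and no test for any level or difference given here. In such pooled samples, fewer cells that make an RNA and less of it per cell cannot be told apart. Among loci within 10 bp of 1000 bp, the smallest value above 0 was 0.0166 FPKM for SSCs and 0.0154 FPKM for FGSCs. Within 10 bp of 500 bp it was 0.0415 and 0.0373 FPKM. These smallest values set no detection limit, since values for SSCs went down to 1.22e-06 FPKM in the Mb before the Hdac9 window. The study reports fewer reads and a lower aligned share for SSCs. The part of read depth in the values listed at 0 was not tested. Over the whole table the median difference, FGSC minus SSC on the log2(FPKM + 0.5) scale, was 0.44 (0.42 among transcripts with at least 0.5 FPKM), and the differences below are to be read against that shift.

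Long non-coding RNAs are transcripts with no long open reading frame, often made at low level and in a single cell type. Assembly from short reads can return a single long, weakly covered RNA as a row of separate transcripts. Transcription that leaves a start region in both directions gives a pair of RNAs on opposite strands, head to head, and such start regions can lie in repeated sequence that is present at many places in the genome.

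In 4 of the 6 windows, transcripts on opposite strands pointed away from each other across a gap of under 2 kb, at 6 places in all. The strand was read from the numbering of the assembly, which runs along each chromosome once per strand. In the AC105297.2 window transcripts of both strands were placed on a single locus from 9188834 to 9192418. The Hdac9 window held transcripts of the minus strand only. The sequences that follow lie at or near the assembled 5′ ends from which the levels below are described. They were read from the RefSeq copy of the mm10 assembly. Where transcription starts was not measured. The first spans the gap of 215 bp between TCONS_00129190 (minus strand) and TCONS_00125089 (plus strand) of the Pdzrn3 window. It is chr6:101040706-101041005, plus strand, with each CpG in capitals, and it includes bases of both transcripts. The next 2 are copies of it at another head-to-head gap of the same window, chr6:101454228-101454527, plus strand, and at the start of the most abundant lncRNA of the AC105297.2 window, chr17:9192392-9192691, minus strand, with the bases that differ from the first in capitals.
Pdzrn3 window, first gap: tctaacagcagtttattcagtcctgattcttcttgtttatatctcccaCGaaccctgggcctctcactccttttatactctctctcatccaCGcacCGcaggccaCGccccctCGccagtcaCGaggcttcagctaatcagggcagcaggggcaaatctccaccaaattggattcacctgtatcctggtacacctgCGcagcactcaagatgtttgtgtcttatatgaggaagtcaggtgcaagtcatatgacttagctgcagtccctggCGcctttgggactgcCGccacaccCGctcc
Pdzrn3 window, copy: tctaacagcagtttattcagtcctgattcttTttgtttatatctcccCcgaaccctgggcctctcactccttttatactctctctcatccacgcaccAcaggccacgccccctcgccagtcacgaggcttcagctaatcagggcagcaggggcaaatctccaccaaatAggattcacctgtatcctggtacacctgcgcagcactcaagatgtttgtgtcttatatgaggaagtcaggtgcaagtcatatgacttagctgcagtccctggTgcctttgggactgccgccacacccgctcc
AC105297.2 window, copy: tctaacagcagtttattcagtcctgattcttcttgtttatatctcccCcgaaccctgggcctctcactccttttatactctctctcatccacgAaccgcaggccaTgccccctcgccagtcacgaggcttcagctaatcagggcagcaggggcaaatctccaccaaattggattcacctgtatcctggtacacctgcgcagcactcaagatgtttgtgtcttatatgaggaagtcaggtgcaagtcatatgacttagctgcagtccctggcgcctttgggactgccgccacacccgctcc

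The copy on chromosome 6 differed from the first at 5 of 300 positions and the copy on chromosome 17 at 3 of 300. The first holds 10 CpG, against a median of 7 in 32851 RefSeq promoters of the same length. All of its 300 bases are masked as repeat in the reference. The family of the repeat was not looked up here. It is described further with the levels of the transcripts that start in it.

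The stretches printed next, from 3 other windows, do not hold this sequence. They are the middle of the gap between TCONS_00067924 and the 108741 bp locus of the Adcyap1 window (chr17:93538010-93538309, plus strand), the middle of the gap between TCONS_00096732 and TCONS_00092743 of the Ankrd50-Fat4 window (chr3:38579537-38579836, plus strand), and the RefSeq promoter of Gm39767 in the Gpr158 window (chr2:21964118-21964417, minus strand). The Adcyap1 stretch holds the 5′ end of neither transcript beside it. Each CpG is in capitals.
Adcyap1 window, gap: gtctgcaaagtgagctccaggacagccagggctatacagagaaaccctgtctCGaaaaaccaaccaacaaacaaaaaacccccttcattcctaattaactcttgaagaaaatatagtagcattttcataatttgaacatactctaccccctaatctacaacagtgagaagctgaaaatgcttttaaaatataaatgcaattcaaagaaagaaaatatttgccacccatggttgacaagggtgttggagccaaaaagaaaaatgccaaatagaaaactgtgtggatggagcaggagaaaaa
Ankrd50-Fat4 window, gap: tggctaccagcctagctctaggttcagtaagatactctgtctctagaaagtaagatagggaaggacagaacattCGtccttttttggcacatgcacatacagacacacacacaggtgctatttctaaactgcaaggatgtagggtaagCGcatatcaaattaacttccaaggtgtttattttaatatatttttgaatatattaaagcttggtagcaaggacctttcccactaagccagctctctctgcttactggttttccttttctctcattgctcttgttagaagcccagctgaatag
Gm39767 promoter: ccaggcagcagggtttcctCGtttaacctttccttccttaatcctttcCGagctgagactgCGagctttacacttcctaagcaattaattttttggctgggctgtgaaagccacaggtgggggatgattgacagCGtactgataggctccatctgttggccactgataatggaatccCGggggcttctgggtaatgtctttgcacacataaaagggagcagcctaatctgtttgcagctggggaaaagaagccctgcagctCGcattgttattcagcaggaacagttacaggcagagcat

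They hold fewer CpG than the median RefSeq promoter. The Adcyap1 gap holds 1 CpG, the Ankrd50-Fat4 gap 2 and the Gm39767 promoter 6, and 23.3% of the RefSeq promoters hold 2 or fewer. The letters TATAAA, read on both strands, are in the Adcyap1 gap and in the first gap of the Pdzrn3 window, and are not in the Ankrd50-Fat4 gap or the Gm39767 promoter; 13.6% of the RefSeq promoters hold them. The middle of the head-to-head gap of the Gpr158 window, not printed here, holds 2 CpG and these letters. A match of these letters is a description of the sequence only.

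Of the 221 transcripts, 218 had a higher FPKM in FGSCs and 3 in SSCs, where 64% of the whole table was higher in FGSCs. In SSCs 118 of them were listed at 0, against 18.9% of the table, and none was listed at 0 in FGSCs, against 7.16%. At least 0.5 FPKM in SSCs or FGSCs was reached by 180 of the 221, and 149 of these 180 were FGSC-high, meaning above 2-fold higher in FGSCs on the log2(FPKM + 0.5) scale. Among all transcripts of the table, 31% of those with at least 0.5 FPKM were FGSC-high and 23.2% were SSC-high. A further 28 of the 180 were higher in FGSCs by no more than 2-fold on that scale, and 3 were SSC-high. The added 0.5 shrinks the ratio of low values, so that these 28 are not near-equal in FPKM. Among them TCONS_00064251 had 0.0134 FPKM in SSCs against 0.526 FPKM in FGSCs. The 41 transcripts under 0.5 FPKM lay between 0.216 and 0.497 FPKM in FGSCs. Because the windows were picked on these values, the counts restate the choice. The median FGSC level of the 221 was 0.794 FPKM, against 0.442 FPKM over the table. Together the 221, 1.19% of the table, made up 2.70% of its summed FGSC FPKM and 0.124% of its summed SSC FPKM.

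**Figure D1:**
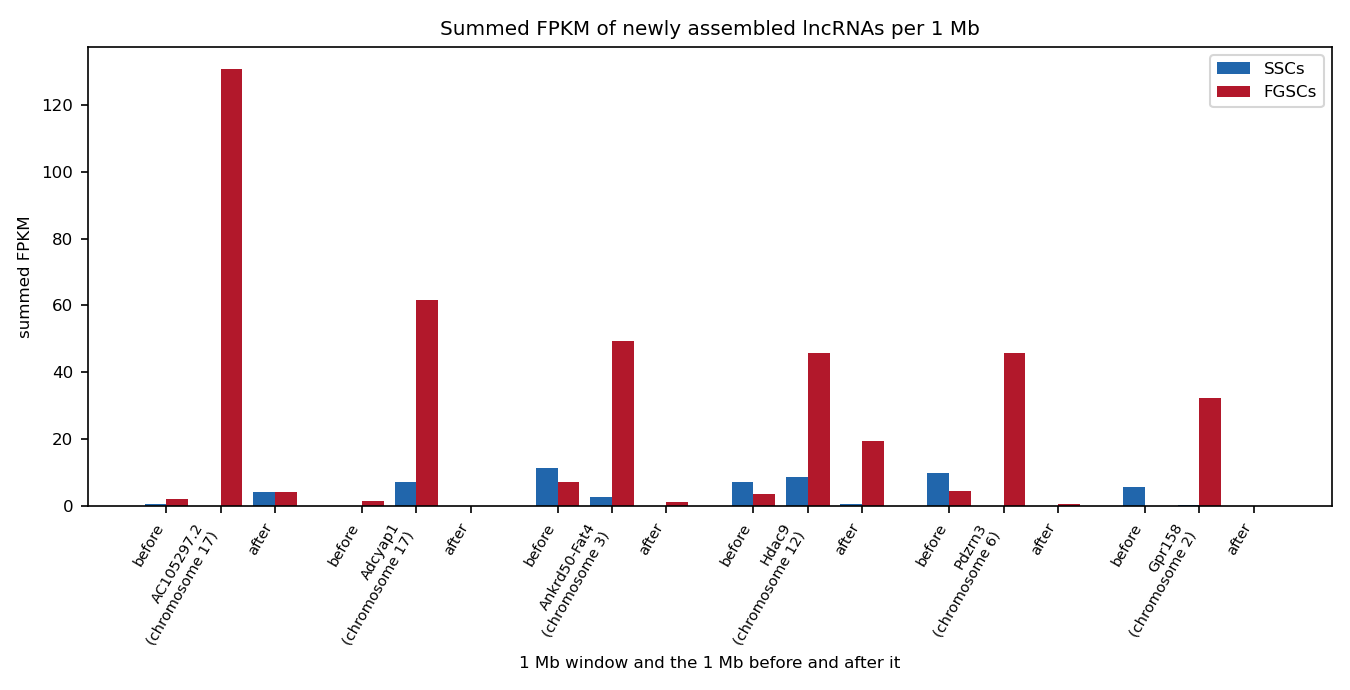
Summed FPKM (vertical axis) of the newly assembled lncRNAs in SSCs (blue) and FGSCs (red) in each 1 Mb window and in the 1 Mb before and after it, 1 bar per cell type with no error since there is 1 value per cell type. The 6 windows reach 32.4 to 130.7 FPKM in FGSCs, and the tallest red bar outside them is the 19.6 FPKM after the Hdac9 window.

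The summed FGSC level was 130.7 FPKM in the AC105297.2 window, 61.8 in the Adcyap1 window, 49.5 in the Ankrd50-Fat4 window, 45.9 in the Pdzrn3 window, 45.8 in the Hdac9 window and 32.4 in the Gpr158 window. The summed SSC level did not follow that order. All 25 transcripts of the AC105297.2 window were listed at 0 in SSCs, so that its SSC sum was 0 and no fold is given. The SSC sum was 0.131 FPKM in the Pdzrn3 window and 0.397 in the Gpr158 window, and the FGSC sums were 351 and 81.6 times as high, or 90.9 and 19.2 times under quantile normalization, which gives both cell types the same distribution of values. In the Adcyap1 and Ankrd50-Fat4 windows the SSC sums were 7.19 and 2.77 FPKM and the ratios 8.59 and 17.9. A single SSC-higher transcript carried most of each of these 2 SSC sums, and without it the sums were 1.34 and 0.656 FPKM and the ratios 45.7 and 75.3. The Hdac9 window had the highest SSC sum, 8.83 FPKM, and the lowest ratio, 5.19, or 5.64 without its SSC-higher transcript and 2.89 under quantile normalization.

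The 12 Mb that flank the windows, which the choice of windows did not use, held 81 transcripts, between 0 and 20 per Mb. Of these 52 were higher in FGSCs, and 30 of the 57 with at least 0.5 FPKM were FGSC-high, 52.6% against 31% over all transcripts. The Mb after the Hdac9 window gave 15 of these 30, from 16 of the 57, and in the other 11 Mb 15 of 41 were FGSC-high, 36.6%. The 81 summed to 40.0 FPKM for SSCs and 45.1 FPKM for FGSCs, and to 39.2 FPKM and 25.6 FPKM without that Mb, which was set apart after its values were seen and held 19.6 FPKM of the FGSC sum. All 20 transcripts of that Mb were higher in FGSCs, and 12 of them were listed at 0 in SSCs. The Mb after the Adcyap1 window and the Mb after the Gpr158 window held no transcript of the table. Close to a window edge, TCONS_00076919 lay 7.98 kb before the Gpr158 window with 5.78 FPKM in SSCs against 0.165 FPKM in FGSCs. TCONS_00035485, 46.0 kb after the Hdac9 window, had 0.433 and 0.448 FPKM, and TCONS_00125086, 102 kb before the Pdzrn3 window, was listed at 0 in SSCs with 1.12 FPKM in FGSCs. The other neighbours outside lay between 141 kb and 1041 kb from their window.

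**Figure D2:**
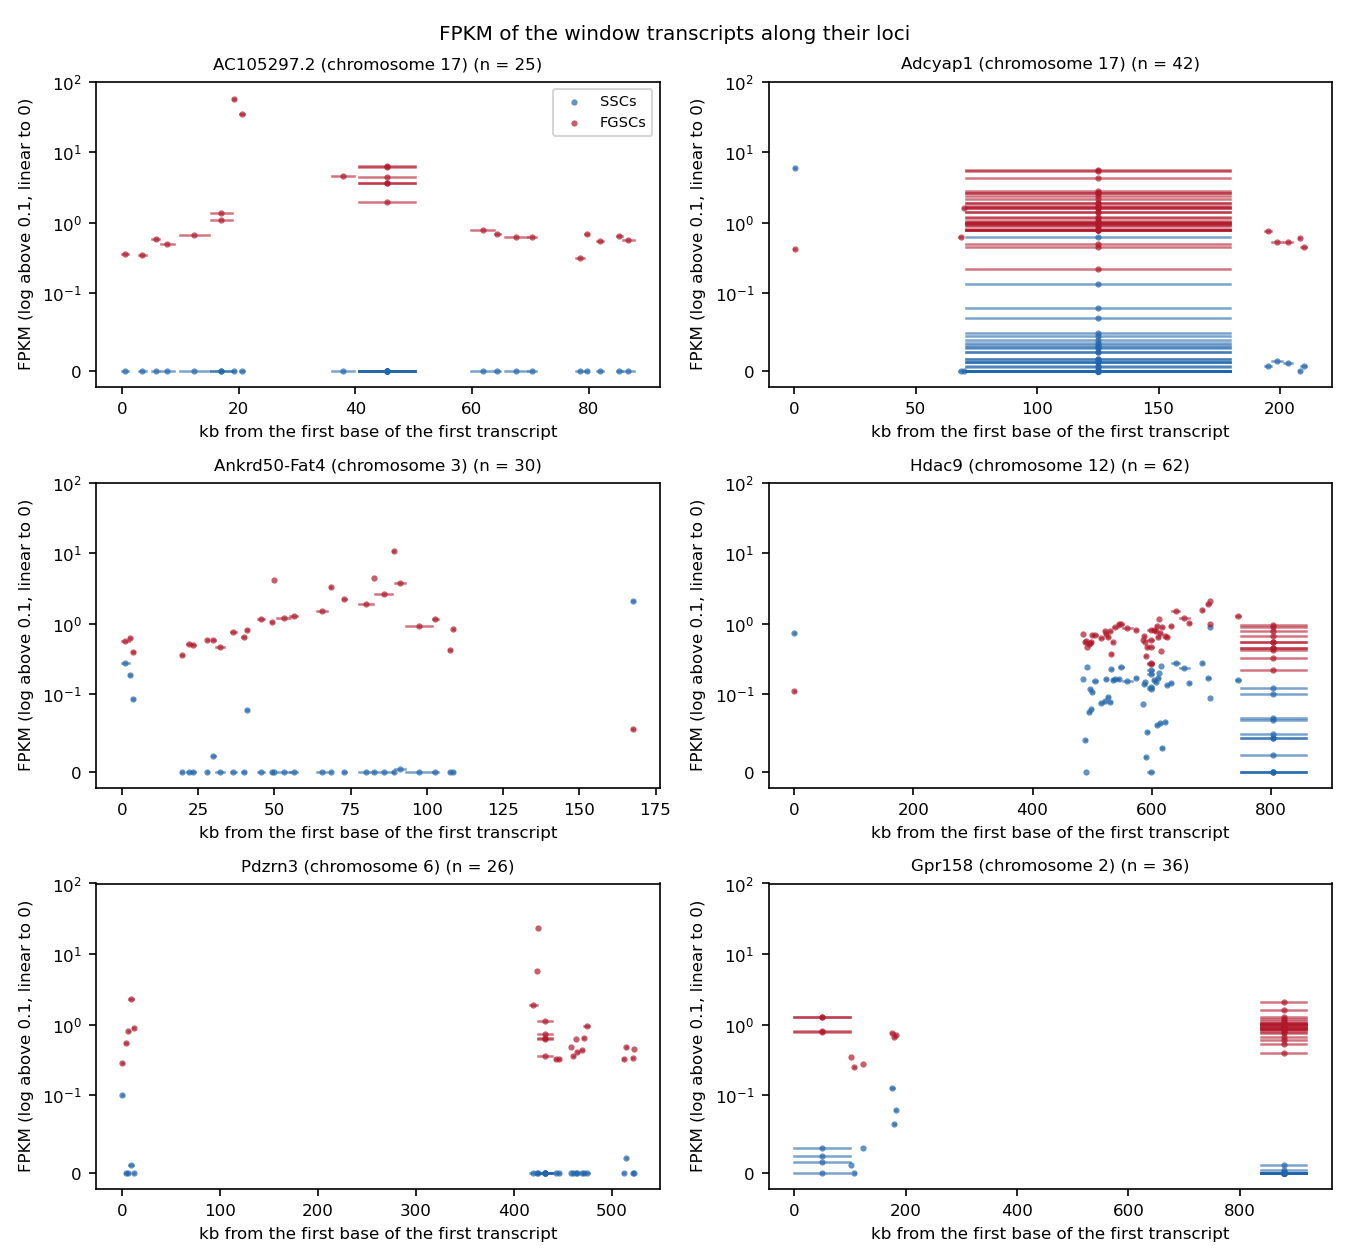
FPKM in SSCs (blue) and FGSCs (red) of every transcript of the 6 windows, with the locus drawn as a horizontal line and its midpoint as a point. The horizontal axis is kb from the first base of the first transcript and the vertical axis is logarithmic above 0.1 FPKM and linear below. Red lies above blue everywhere but at 3 lone transcripts, at the low end of the Adcyap1 and Hdac9 windows and at the high end of the Ankrd50-Fat4 window. Under quantile normalization 9 transcripts, 6 of them in the Hdac9 window, were higher in SSCs.

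The transcripts filled the windows in different ways. In the AC105297.2 window the 19 loci lay within 87.8 kb, with a median gap of 982 bp between neighbours and none over 20 kb. The 30 loci of the Ankrd50-Fat4 window lay within 168 kb with a median gap of 874 bp, and its 1 gap over 20 kb, of 58.6 kb, set off the SSC-higher transcript. The 9 loci of the Adcyap1 window lay within 211 kb, and 34 of its 42 transcripts shared 1 locus of 108741 bp. Their order inside that locus was taken from the numbering of the assembly. The 48 loci of the Hdac9 window were the most closely set, with a median gap of 359 bp, and 33 of its 47 gaps were under 1 kb. Apart from the SSC-higher transcript, which lay 483 kb away, they ran over 376 kb. With gaps over 20 kb as the limit, the Pdzrn3 window held 3 groups of loci with up to 404 kb between them, and the Gpr158 window 3 groups with up to 655 kb between them. In the Pdzrn3 window the coding gene itself, on the minus strand from 101149609 to 101377897, lies in the widest of these gaps and overlaps none of the transcripts.

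Evenness is given by the Gini coefficient of the FGSC level over the transcripts of a window, which is 0 when all are equal and nears 1 when a single transcript holds the whole sum. It was lowest in the Gpr158 and Hdac9 windows, 0.204 and 0.253, where the highest transcript held 6.37% and 4.50% of the sum. It was 0.390 in the Adcyap1 window and 0.519 in the Ankrd50-Fat4 window. In the Pdzrn3 and AC105297.2 windows it was 0.690 and 0.763, and the highest transcript held 51.8% and 42.6% of the sum. The same coefficient over all 18573 transcripts was 0.587.

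In the 2 most uneven windows the highest values lay at short loci of repeated sequence. TCONS_00060729 of the AC105297.2 window, at chromosome 17 from 9192566 to 9192897, had 55.6 FPKM in FGSCs, with SSCs listed at 0. TCONS_00060730, from 9193890 to 9194585, had 34.1 FPKM in FGSCs and was also listed at 0 in SSCs. Their loci are 332 and 696 bp long, 99.1% and 100% of their bases are masked as repeat, and 64 and 835 other places in the genome match them at 90% identity over 80% of the length. In the Pdzrn3 window TCONS_00129199, 255 bp at chromosome 6 from 101454001 to 101454255, had 23.7 FPKM in FGSCs, with SSCs listed at 0. TCONS_00125092, 335 bp, had 5.83 FPKM in FGSCs, with SSCs listed at 0. These loci are 100% and 96.1% masked, with 10 and 2 other matching places. How reads that map to several places were shared out is not given in the sources used here, and its part in these levels was not tested. Without loci that are at least 90% masked the FGSC sum fell to 41.0 FPKM in the AC105297.2 window and to 16.3 FPKM in the Pdzrn3 window, where the Gini coefficient then was 0.327.

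The short loci of the Ankrd50-Fat4 window were of another kind. TCONS_00096731, the most abundant, spans 203 bp (chr3:38575681-38575883, minus strand), had 10.7 FPKM in FGSCs, with SSCs listed at 0. It is 9.36% masked and has no other matching place. Its sequence is shown because it is unique in the genome yet stands above its longer neighbours, with its 1 CpG in capitals.
TCONS_00096731: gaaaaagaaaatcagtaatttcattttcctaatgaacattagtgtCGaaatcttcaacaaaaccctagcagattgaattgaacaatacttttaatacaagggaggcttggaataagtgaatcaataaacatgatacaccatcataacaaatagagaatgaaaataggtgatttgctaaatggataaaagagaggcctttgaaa

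TCONS_00096729, of 240 bp, and TCONS_00096719, of 238 bp, had 4.42 and 4.17 FPKM in FGSCs, with SSCs listed at 0, and likewise had no other matching place. The longer loci on either side of TCONS_00096731 had 2.66 FPKM (TCONS_00096730) and 3.75 FPKM (TCONS_00096732) in FGSCs. Over the 6 windows the 10 transcripts at loci under 400 bp had a median of 4.30 FPKM in FGSCs and the other 211 a median of 0.790 FPKM. Over the table the FGSC medians were 0.404 FPKM for 965 short loci and 0.442 FPKM for the others. The SSC medians of the same loci were 1.66 and 0.231 FPKM. FPKM divides by length, so that for a given number of fragments a short transcript gets a high value.

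**Figure D3:**
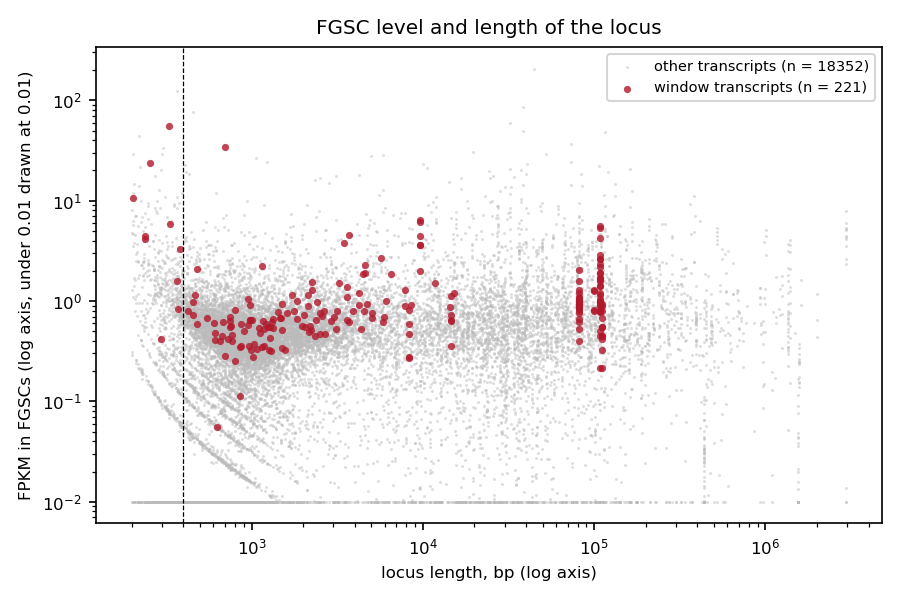
FPKM in FGSCs against the length of the locus, both on log axes, for the 221 window transcripts (red) and the other 18352 (grey), with values under 0.01 drawn at 0.01 and a dashed line at 400 bp. The 4 red points above 10 FPKM lie at loci of 203, 255, 332 and 696 bp.

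Along the strand the FGSC level fell from the 5′ end in 3 windows, and the order and the level were less closely related in the other 3. The transcripts were put in order from the 5′ end of each stretch, a stretch being same-strand neighbours no more than 50 kb apart, and Spearman's rho between that order and the FGSC level is given as a description, since neighbouring transcripts share their reads, region and libraries. In the Ankrd50-Fat4 window rho was -0.93 over 22 minus-strand transcripts, and -0.97 over the 18 at loci of at least 400 bp. There TCONS_00096732, at the head-to-head gap, had 3.75 FPKM in FGSCs, TCONS_00096723 in the middle of the stretch had 1.51 FPKM and TCONS_00096703 at its far end had 0.353 FPKM. Their SSC values were 0.00424 FPKM, listed at 0 and listed at 0. In the AC105297.2 window rho was -0.84 over 19 plus-strand transcripts. The first locus of that stretch had only 1.09 FPKM (TCONS_00060728), the 2 repeated loci after it held the peak, the 6 transcripts of the locus from 9214155 to 9223756 lay between 1.99 and 6.40 FPKM, and the last, TCONS_00060751, had 0.566 FPKM. In the Adcyap1 window rho was -0.72 over 39 plus-strand transcripts. It was -0.43 over 26 transcripts in the Gpr158 window, which share 1 locus and were ordered by their numbering alone, -0.36 over 19 in the Pdzrn3 window and -0.15 over 61 in the Hdac9 window, where the level stayed between 0.216 and 2.06 FPKM.

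**Figure D4:**
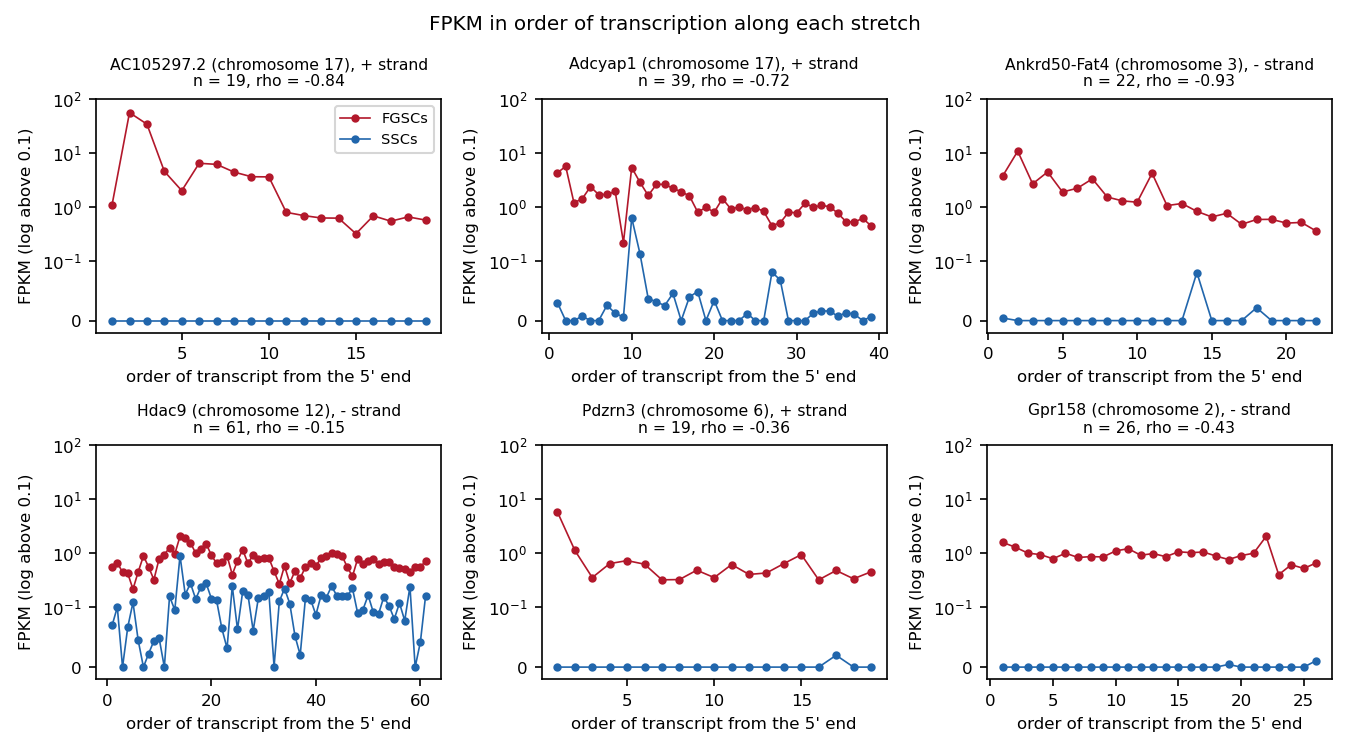
FPKM in FGSCs (red) and SSCs (blue) of the transcripts of the longest same-strand stretch in each window, in order from the 5′ end (horizontal axis), on an axis that is logarithmic above 0.1 FPKM. Transcripts that share a locus are ordered by their numbering. The red line falls most steadily in the Ankrd50-Fat4 window (rho = -0.93) and least in the Hdac9 window (rho = -0.15).

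A fall of this kind is not particular to the 6 windows. Of 141 other stretches of 8 or more transcripts in which over 90% were higher in FGSCs, 113 had a rho under 0, with a median of -0.44. Head-to-head neighbours were also about as frequent as elsewhere, with 6 of 88 neighbouring pairs under 2 kb apart in the windows (6.82%) and 290 of 4308 over the table (6.73%).

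The AC105297.2 window is named for a GENCODE lincRNA gene on the plus strand of chromosome 17, from 9189126 to 9223664. On that strand 10 of the 25 transcripts overlapped it, with a sum of 121 FPKM in FGSCs, and the first of them began 292 bp before the annotated start. Another 9 plus-strand transcripts continued beyond its annotated end to 9261409. On the minus strand 6 transcripts ran the other way over 18.8 kb, between 0.346 and 1.39 FPKM in FGSCs and all listed at 0 in SSCs. The highest of these, TCONS_00064416, shared the first plus-strand locus, and TCONS_00064411, the farthest from it, had 0.355 FPKM.

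The Adcyap1 window lies in a region with few coding or lncRNA genes. Adcyap1, which encodes the neuropeptide PACAP, is the only coding gene annotated there in GENCODE, with no lncRNA gene beside it. Genes of other kinds were not listed. The transcripts lay 261 to 470 kb from their nearest coding gene and overlapped no annotated gene. TCONS_00064205, the most abundant, had 5.62 FPKM in FGSCs, with SSCs listed at 0. TCONS_00064217, at the same locus, had 5.33 FPKM in FGSCs against 0.625 FPKM in SSCs, the highest SSC value among the 41 that were higher in FGSCs. The 2 minus-strand transcripts across the gap of 736 bp, TCONS_00067924 and TCONS_00067923, had 1.59 and 0.625 FPKM in FGSCs, with SSCs listed at 0 for each.

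The transcripts of the Ankrd50-Fat4 window lie between Ankrd50, an ankyrin-repeat protein of endosomal recycling, and Fat4, a large cadherin of planar cell polarity. None of the 30 overlapped a gene of GENCODE or RefSeq. The 3 nearest Ankrd50 had the highest SSC values among the 29 that were higher in FGSCs. TCONS_00092738, 1810 bp from Ankrd50, had 0.274 FPKM in SSCs against 0.567 FPKM in FGSCs, and the next 2 had 0.183 and 0.629 FPKM, and 0.0931 and 0.395 FPKM. Of the 26 transcripts between these 3 and the SSC-higher one, 23 were listed at 0 in SSCs. On the plus strand of the head-to-head gap, 4 transcripts had 0.416 to 1.15 FPKM in FGSCs.

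All 62 transcripts of the Hdac9 window overlapped Hdac9, on its own strand. Hdac9 encodes a class IIa histone deacetylase, a repressor of MEF2-driven transcription in muscle. The table classes them as intergenic although the gene spans 34047580 to 34917095 in GENCODE. The 61 that were higher in FGSCs lay between 34531350 and 34907008, and 42 of these 61 lay at loci with no Hdac9 exon of GENCODE or RefSeq. The other 19 lay at 5 loci, and 11 of them shared the locus from 34796465 to 34907008. The last base of the 61 was 5 bp from a RefSeq 5′ end of Hdac9. At the other side they stopped 1971 bp short of the 5′ end at 34529379, so that they covered the part of the gene that its long isoforms include and its short isoforms do not. Reads of unspliced or newly annotated Hdac9 RNA cannot be told apart here from separate lncRNAs. The levels were low and even. TCONS_00035455 was the highest in both cell types, with 0.902 FPKM in SSCs against 2.06 FPKM in FGSCs, and TCONS_00035454, next to it, had 0.172 and 1.89 FPKM. In SSCs 4 were listed at 0. Under quantile normalization 6 of the 62 were higher in SSCs. With at least 0.5 FPKM 24 of 49 were FGSC-high and 24 were higher in FGSCs but not past 2-fold on the log2(FPKM + 0.5) scale. One of these 24, TCONS_00035405, had 0.106 FPKM in SSCs against 0.681 FPKM in FGSCs. The number past 2-fold moved from 48 with a pseudocount of 0.1 to 2 with a pseudocount of 1. The median difference was 0.94 on the log2(FPKM + 0.5) scale, against 0.44 over the table.

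In the Gpr158 window 26 of the 36 transcripts shared the minus-strand locus from 21882737 to 21964174, which lies over the RefSeq lncRNA gene Gm39767 with 7 bp between the 5′ ends. Gpr158, an orphan receptor gene, ends 52.2 kb away. Of these 26, 24 were listed at 0 in SSCs, and in FGSCs they lay between 0.401 and 2.06 FPKM (median 0.932). TCONS_00084855 and TCONS_00084882 were the highest, with 2.06 and 1.59 FPKM in FGSCs, and both were listed at 0 in SSCs. At the other end of the window, 4 transcripts over the pseudogene Gm13377 had 1.26, 1.28, 0.787 and 0.813 FPKM in FGSCs and at most 0.0319 FPKM in SSCs (TCONS_00084837 to TCONS_00084840). The remaining 6 lay on the plus strand, 3 before Enkur, which encodes a protein of the sperm flagellum, and 3 after Thnsl1. TCONS_00076936 beside Thnsl1 had the highest SSC value of the window, 0.125 FPKM, and 0.754 FPKM in FGSCs. RefSeq extends Thnsl1 over these last 3 on the same strand.

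In the Pdzrn3 window all 26 were higher in FGSCs (all but TCONS_00129187 under quantile normalization), and 23 were listed at 0 in SSCs. Pdzrn3 encodes a ubiquitin ligase of the neuromuscular synapse. The lncRNAs lay 68.3 to 174 kb from it, and the first 2 of their 3 groups held head-to-head transcripts. In the first group TCONS_00129190 (minus) had 2.29 FPKM in FGSCs against 0.0102 FPKM in SSCs, and TCONS_00125089 (plus) had 0.906 FPKM and was listed at 0 in SSCs. Away from the gap on the minus strand the next 3 had 0.797, 0.541 and 0.283 FPKM in FGSCs, in that order. In the second group TCONS_00129198 (minus) had 1.86 FPKM in FGSCs 57 bp from TCONS_00125092, and TCONS_00129199 (minus) lay 35 bp from a plus-strand locus of 14548 bp with 5 transcripts of 0.354 to 1.13 FPKM. All of these were listed at 0 in SSCs. The 13 plus-strand transcripts beyond them had 0.322 to 0.945 FPKM in FGSCs. TCONS_00129187, the farthest minus-strand transcript, had the highest SSC value of the window, 0.101 FPKM.

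The 3 transcripts that were higher in SSCs stood apart from the others in place. TCONS_00067922 of the Adcyap1 window, a locus of 298 bp at chromosome 17 from 93467768 on the minus strand, had 5.85 FPKM in SSCs against 0.421 FPKM in FGSCs, a difference of -2.78 on the log2(FPKM + 0.5) scale. It lay 67.6 kb from the next transcript. Loci under 400 bp had a higher median in SSCs than in FGSCs over the table, 1.66 against 0.404 FPKM. TCONS_00096733 of the Ankrd50-Fat4 window had 2.11 FPKM in SSCs against 0.0556 FPKM in FGSCs, a difference of -2.23. TCONS_00035389 of the Hdac9 window had 0.737 FPKM in SSCs against 0.112 FPKM in FGSCs, a difference of -1.02, and lay at the 3′ end of Hdac9. Each was the first or the last transcript of its window, and the AC105297.2, Pdzrn3 and Gpr158 windows had none.

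The sequence at the first gap of the Pdzrn3 window was then searched in the genome, after the levels had been seen. At least 240 of its 300 bases were found again at 3073 places, 930 of them at 95% identity or more, counting the gap itself. The windows held 16 of these places and 8 at 95% or more. All 3 head-to-head gaps of the Pdzrn3 window carried such a copy, and so did the start of TCONS_00060729 in the AC105297.2 window. A second copy there, from 9194714 to 9195013 and with 98.7% identity, lies just after TCONS_00060730, so that the 2 most abundant transcripts of all 6 windows lie at or between these copies. A more distant copy, of 82.2% identity, runs from 9188837 to 9189110 and ends just before the annotated start of AC105297.2 at 9189126. No copy was found at the head-to-head gaps of the Adcyap1 and Ankrd50-Fat4 windows. The remaining copies of 95% or more in the windows had no 5′ end of a transcript within 1 kb. In the Gpr158 window they began at 21140683, inside the locus over Gm13377 (96.6% identity), and at 21480175 (97%). In the Pdzrn3 window such a copy began at 101868974 (96%).

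The 5′ end of the locus lay inside a copy of 95% or more for 12 of the 221 transcripts, on both strands. Of these, 10 were in the Pdzrn3 window and 2 in the AC105297.2 window. TCONS_00129190 and TCONS_00125089 are among them by construction, since the searched sequence was taken around their gap. Within 1 kb of a copy there were 13, the other being TCONS_00060730. These 13 summed to 129 FPKM in FGSCs, 35.3% of the sum over all 221, and to 0.0102 FPKM in SSCs. Most of the FGSC sum came from TCONS_00060729, TCONS_00060730 and TCONS_00129199, at loci that are 99.1% to 100% masked.

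Transcripts outside the windows, which were not used to choose them, were read at the same copies. There 333 transcripts at 199 loci had the 5′ end of their locus within 1 kb of a copy of 95% identity or more. Of these 332 were higher in FGSCs and none in SSCs, against 62.9% higher in FGSCs among 18006 transcripts with no such copy, and 270 were listed at 0 in SSCs. With at least 0.5 FPKM, 263 of 266 were FGSC-high (98.9%) and none was SSC-high, against 28.7% of 11563 transcripts without a copy. A transcript listed at 0 in SSCs with over 0.5 FPKM in FGSCs is FGSC-high by the form of the call. The share of 98.9% therefore follows largely from the SSC values listed at 0. The median was 0.899 FPKM in FGSCs and 0 in SSCs, against 0.434 and 0.272 FPKM without a copy. Restricted to loci of which less than 50% is masked, 197 of 199 were FGSC-high, and restricted to transcripts above 0 in both cell types, 56 of 59. Before the limit of 0.5 FPKM, the 63 transcripts above 0 in both had a median of only 0.0240 FPKM in SSCs. Where the first 300 bases were at least 90% masked but no such copy was near, 216 of 485 were FGSC-high (44.5%). For copies of 80% to 95% identity, 70 of 75 were FGSC-high when the transcript ran in the direction of TCONS_00129190 relative to the copy, and 31 of 42 when it ran the other way. These transcripts share the repeat and often a locus, and 1 value per cell type stands behind each, so the counts are a description. The 263 are 7.35% of the 3579 FGSC-high transcripts outside the windows. The genome held 930 copies of 95% or more in all, and how many had no transcript near them was not counted.

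**Figure D5:**
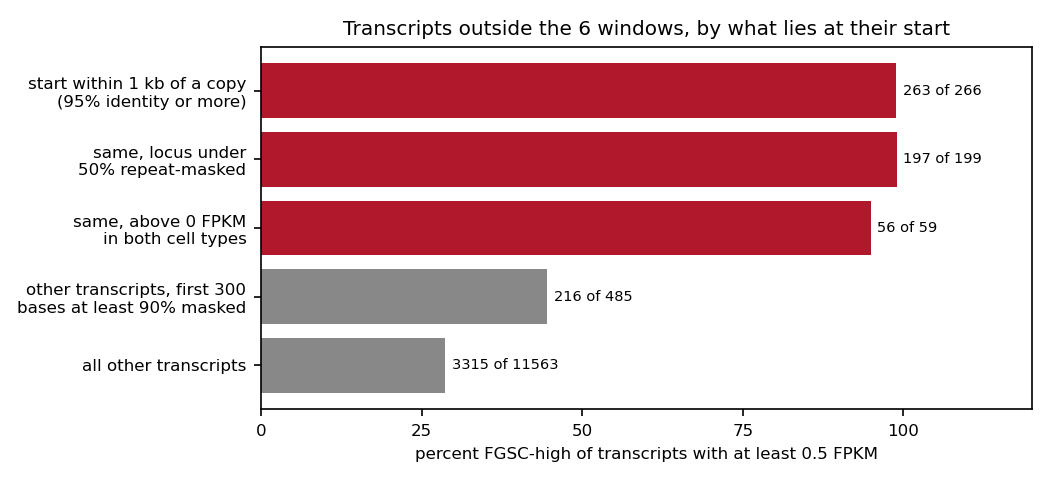
Percent of transcripts outside the 6 windows that were FGSC-high (horizontal axis), among those with at least 0.5 FPKM, for transcripts whose locus starts within 1 kb of a copy of the repeat (red) and for others (grey), with the counts beside the bars. The red bars stand at 94.9% to 99.0% and the grey bars at 44.5% and 28.7%. A transcript listed at 0 in SSCs with over 0.5 FPKM in FGSCs is FGSC-high by the form of the call.

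The median GC content of the loci was 40.5% over 136 loci, against 44.4% over 15007 loci, and the median masked share was 18.0% against 22.6%. Of the 221 transcripts 139 overlapped no GENCODE gene, and 110 overlapped none in GENCODE or RefSeq.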

How the data were processed

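The authors mapped strand-specific reads of 3 libraries per cell type to mm10, assembled transcripts with Cufflinks and Scripture, kept those that passed limits on length, exons, coverage and coding potential, and computed FPKM per cell type. The submitters' processing notes name TopHat2, Cufflinks and Cuffdiff 2.1.1. The deposited FPKM is 1 pooled value per transcript and cell type. The table also holds the authors' own fold changes, test statistics, p-values and calls, which were not used. Reads per transcript are unknown.

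The design called for no test where a cell type has 1 value, and none was run. Differences were computed on log2(FPKM + 0.5), and calls needed at least 0.5 FPKM in SSCs or FGSCs and more than 2-fold. The windows, the named transcripts and the lists were chosen with earlier results of these data known. Named transcripts are, per window, the 2 highest in FGSCs, the highest in SSCs, the first, the last, up to 3 higher in SSCs and those with an annotated name; others named here were chosen after their values were seen. Starts were increased by 1 to count from 1. Strand was taken from the transcript numbering, which runs along each chromosome once per strand (2353 of 2354 transcripts with an annotated partner lay on the strand so given). Sequence, repeat masking and genes came from the RefSeq mm10 assembly and GENCODE M21. Copies were found with BLAST 2.17.0. The Gini coefficient, the fold call, the scalings and the merging of loci were tested on simulated or constructed values. The order along the strand, the head-to-head pairs and the search for copies were not. Scripts ran in Python 3.11.15 with SciPy 1.17.1, NumPy 2.4.6, pandas 2.3.3, pysam 0.24.0, samtools 1.23.1 and matplotlib 3.10.9.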

Additional observations from a re-analysis of the deposited data

How the results depend on the processing

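No paired analysis was possible because each cell type has 1 pooled value, and for the same reason no library could be left out. With that single value no difference can be set against replicate spread. Of 212 window values under other settings, 164 stayed within 1.5 times the value reported. Some of these could not move. Scaling SSCs to equal medians leaves every FGSC sum as it is. An FGSC-high transcript has over 0.5 FPKM in FGSCs by the form of the call, so dropping the filter changes no count. The 164 are thus no measure of stability. Of 108 values for the 27 named transcripts, 1 changed sign: TCONS_00129187 stood at -0.10 on the log2 scale under quantile normalization. Another pseudocount cannot change a sign, and scaling SSCs to equal medians cannot do so for a transcript listed at 0 in SSCs. The count of sign changes is therefore no measure of how stable the directions are.

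The number of FGSC-high transcripts, 149 in all, was 65 with a pseudocount of 1, 71 with a minimum of 1 FPKM and 37 above 4-fold. In the order AC105297.2, Adcyap1, Ankrd50-Fat4, Hdac9, Pdzrn3 and Gpr158, the windows counted 11, 20, 14, 2, 5 and 13 with a pseudocount of 1. They counted 11, 21, 14, 7, 5 and 13 with a minimum of 1 FPKM, and 9, 13, 9, 0, 4 and 2 above 4-fold. The Hdac9 window counted 48 with a pseudocount of 0.1 and 11 under quantile normalization. The share over all transcripts under these settings is not given here, so the counts cannot be set against it.

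Quantile normalization raised the FGSC sum of the AC105297.2 window to 201 FPKM. It raised the SSC sum to 30.1 FPKM over all windows, 0.303 in AC105297.2, 15.1 in Hdac9, 0.687 in Pdzrn3 and 1.65 in Gpr158. It gave 9 transcripts higher in SSCs, 6 in Hdac9 and 1 in Pdzrn3. The following 3 settings were chosen after seeing the data. Loci of at least 400 bp left FGSC sums of 75.1 FPKM in AC105297.2, 26.1 in Ankrd50-Fat4 and 16.3 in Pdzrn3 (Gini 0.327), and an SSC sum of 1.34 in Adcyap1. Loci under 90% masked left FGSC sums of 41.0 in AC105297.2 and 16.3 in Pdzrn3 (Gini 0.327). Without the SSC-higher transcripts the SSC sum was 1.34 in Adcyap1, 0.656 in Ankrd50-Fat4 and 10.6 over all windows. Merging loci closer than 1 kb left 9 intervals in AC105297.2, 4 in Adcyap1, 15 in Ankrd50-Fat4, 15 in Hdac9 and 13 in Pdzrn3. Other causes of these shifts were not tested.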
